A study of Mus musculus with 8 samples.

Results

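The 10 genes described here encode the DNA-binding factor CTCF (Ctcf), its paralog BORIS (Ctcfl) and 8 proteins of the cohesin complex and its regulators, namely Smc1a, Smc3, Rad21, Stag1, Stag2, Nipbl, Wapl and Pds5b. They were picked by symbol, and all 10 were found by Entrez GeneID among the 23403 genes of the count table. All 10 were also among the 13619 genes that passed the filter on low counts and entered the test. RNA-seq was done on 2 libraries of Hepa-1c1c7 (Hepa-1) mouse hepatoma cells exposed to 25 µM Cr(VI), added as a chromate salt, for 90 minutes and on 2 libraries of control cells without chromium. FAIRE-seq, which isolates DNA that formaldehyde does not crosslink to protein and so marks open chromatin, was done on 1 library of the same acute exposure and on 1 library of cells passaged 20 times with Cr(VI) at 0.5 µM, each with its own control library. The control cells of the 0.5 µM exposure were also passaged 20 times, without chromium. Each FAIRE peak list holds regions with more signal in the chromium library than in its control. Every group is the same established cell line, the labels name no genotype or transgene, and the control RNA-seq labels do not say to which of the exposure regimens those cells belong.

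CTCF is a zinc finger protein that binds a conserved DNA sequence and, at many of these sites, halts cohesin as it extrudes a chromatin loop. Cohesin is a ring of SMC1A, SMC3 and RAD21 to which either STAG1 or STAG2 is attached. NIPBL loads the ring and drives extrusion, WAPL releases it, and PDS5 proteins bind the ring and take part in both its release and its stable hold on sister chromatids. BORIS has nearly the same zinc fingers as CTCF but is normally made in male germ cells, and it is found in a range of cancer cell lines.

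Total counts ranged from 32319676 to 37696116 per RNA-seq library. The 2 treated libraries differed from each other much more than the 2 controls did: among 10561 well-expressed genes, the SD of the log2 difference was 0.526 between the treated libraries and 0.0805 between the controls, and 579 genes were over 2-fold apart in the treated pair against 0 in the control pair. The control libraries still differed by more than sampling noise (a mean chi-square of 2.2 per gene) and were counted as 2 replicates. Whether the replicates came from separate cultures is not stated, so the p-values measure the spread between these libraries only. Levels of 9 hepatocyte and hepatoma markers were mixed. Their sum was 3130 to 3250 normalised CPM (the usual count of reads scaled to library size) in control libraries. In treated libraries it was 6019 to 6656 CPM. Alb had a mean of 926 CPM in control and 3608 CPM in treated libraries, whereas Afp had means of 150 and 153 CPM. Of the 9 markers, 2 (Alb and Ttr) were called higher, while 4.63% of all genes tested were called in either direction. Most of the control sum came from Alb, Krt8 and Krt18. In the controls Apoa1 had 0 counts, Hnf4a 8 and 10, Ttr 12 and 13, and Apoa2 36 and 48. Ttr had 61 and 57 counts in the treated libraries. Among 6 markers of blood, endothelial and mesenchymal cells the sum was 221 to 224 CPM in control libraries. In treated libraries it was 253 to 400 CPM. Of these 6, 1 (Pecam1) was called higher, with 17 and 19 counts in the controls and 60 and 65 in the treated libraries. The endothelial marker Cdh5 had 0 counts in every library. Ptprc, which defines blood cells, had at most 3 counts in any library. Most of the sum of these 6 came from the mesenchymal marker Col1a1. It was at 203 and 207 CPM in the controls and 234 and 364 CPM in the treated libraries. Cd68, the other blood marker, was at 7.77 and 8.29 CPM in the controls and 5.08 and 22.1 CPM in the treated libraries. The part of these marker shifts in the results was not tested.

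In control cells the members differed widely in level when counts were set against exon length (RPKM, which is CPM per kilobase, over all annotated exons of a gene). Rad21, the subunit that closes the ring, stood highest at 163 ± 2.6 RPKM (SD, n = 2), followed by Smc1a at 37.6 ± 1.09 RPKM. Smc3, the partner of SMC1A in the ring, was at 18.4 ± 0.603 RPKM, close above Ctcf at 17.5 ± 0.305 RPKM and Nipbl at 17 ± 1.01 RPKM. The control libraries of Ctcf and Nipbl overlapped, so these neighbours in the order did not differ beyond their spread, whereas every other pair of neighbours was separated in both controls on this length.

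Pds5b followed at 15.7 ± 0.762 RPKM, Stag2 at 12.1 ± 0.265 RPKM and Wapl at 9.34 ± 0.462 RPKM. The lowest were Ctcfl at 2.67 ± 0.0707 RPKM and Stag1 at 1.63 ± 0.0315 RPKM. The order of 2 pairs depended on the exon length used. With the longest annotated transcript of each gene, Stag1 was at 2.85 RPKM and Ctcfl at 2.71 RPKM, and Ctcf was at 19.2 RPKM and Smc3 at 18.4 RPKM. In treated cells the order from Ctcf to Wapl was not resolved between Ctcf, Nipbl, Pds5b, Stag2 and Wapl, as the levels of neighbours overlapped. Rad21, Smc1a and Smc3 remained the highest and Ctcfl and Stag1 the lowest.

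**Figure D1:**
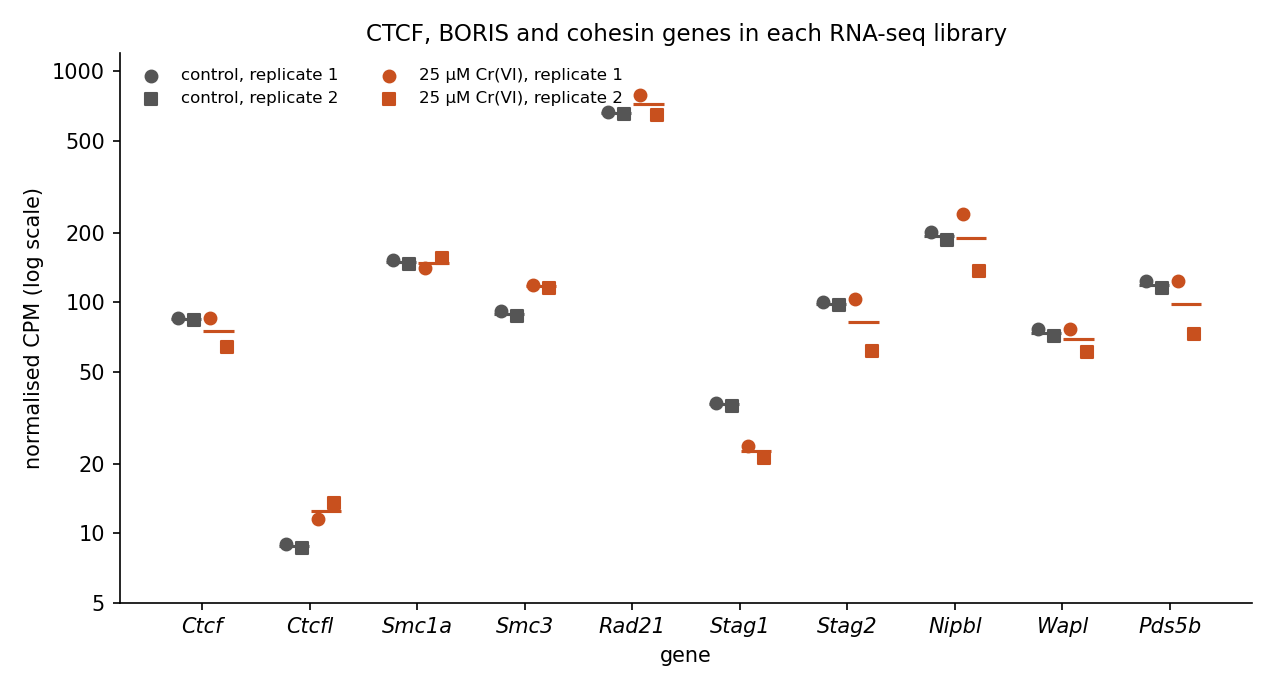
Normalised CPM of the 10 genes on a log scale in each RNA-seq library (grey, control; orange, 25 µM Cr(VI) for 90 minutes; circles, replicate 1; squares, replicate 2; bars, group means). The treated points lie above both controls for Ctcfl and Smc3 and below both for Stag1, and the treated replicates are far apart for Stag2, Nipbl and Pds5b.

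The first question was whether the acute exposure changed the transcripts of these genes. None of the 10 was called at an adjusted p-value under 0.05 (edgeR's quasi-likelihood test, Benjamini-Hochberg adjustment over all genes tested), while 4.63% of all genes tested were called. At an unadjusted p-value under 0.05, 3 of the 10 passed, Ctcfl and Smc3 higher and Stag1 lower, beside 30.7% of all genes tested. DESeq2 called 1 of the 10, Stag1, and 14.2% of all genes it tested. Of the 10 genes, 3 had a fold change above 0 on the log2 scale and 7 below, with a median log2 fold change of -0.07, beside a median of -0.0047 over all genes tested. In bulk RNA a lower level in every cell and fewer cells that make a transcript cannot be told apart.

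Ctcf (chr8:105636474-105682922, plus strand, mm10) was measured at 85.8 and 83.7 CPM in the controls and at 85.7 and 63.8 CPM in the treated libraries. Treated replicate 1 was therefore at the control level and replicate 2 below it, and the groups overlapped. The log2 fold change was -0.18 ± 0.17 (SE), with a 95% interval from -0.65 to 0.28 and an adjusted p-value of 0.515 (edgeR). The interval spans folds from 0.638 to 1.22 and includes no change. Ctcf shares exon bases with Gm33578 and Gm5914 on the opposite strand, and reads in those stretches could not be assigned with certainty because the strand setting of the counting is not given in the sources used here.

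Ctcfl (chr2:173093609-173119525, minus strand), the BORIS gene, had reads assigned to it in every library of these hepatoma cells. It was covered by 312 to 391 reads per library, which gave 8.97 and 8.65 CPM in the controls and 11.5 and 13.5 CPM in the treated libraries. Both treated libraries stood above both controls, a pattern shown by 32.2% of all genes tested. The log2 fold change was 0.51 ± 0.17, a 1.42-fold higher level with an interval from 1.03-fold to 1.96-fold, and the adjusted p-value was 0.144 (edgeR), above the threshold.

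Germ cell markers were measured beside it. Over 6 germ cell markers (Ddx4, Dazl, Sycp3, Sycp1, Stra8 and Tex11) the summed level was 2.59 to 2.81 CPM in control and 2.78 to 3.35 CPM in treated libraries, most of it from Sycp3. Sycp3, a protein of the meiotic chromosome axis, was the only one of the 6 with enough counts for the test and was not called. Per exon length Sycp3 was at 2.28 ± 0.101 RPKM in control and 2.59 ± 0.304 RPKM in treated libraries, below Ctcfl in both groups but near it, and the other 5 markers had at most 4 counts in any library. Ctcfl shares exon bases with Gm40011 and Sycp3 with Chpt1, each on the opposite strand. The counts of both Ctcfl and Sycp3 therefore carry the same uncertainty as those of Ctcf. Set against exon length, Ctcf exceeded Ctcfl 6.5-fold and 6.58-fold in the controls and 5.05-fold and 3.21-fold in the treated libraries. This ratio was lower in both treated libraries, with an exact permutation test (two-sided) giving p = 0.333, the smallest value that 2 libraries against 2 allow.

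Among the genes of the ring, Smc3 (chr19:53600396-53645831, plus strand) had the clearest separation. It was at 91.4 and 87.2 CPM in the controls and at 119 and 115 CPM in the treated libraries. Both treated values were above both controls, as for 32.2% of all genes tested, and differed from each other by only 0.05 on the log2 scale. Smc3 had a log2 fold change of 0.39 ± 0.10 with an interval from 0.11 to 0.66, and the adjusted p-value of 0.0995 (edgeR) did not pass.

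Smc1a (chrX:152016428-152061973, plus strand), which encodes the other SMC arm of the ring, was at 152 and 146 CPM in the controls and at 140 and 155 CPM in the treated libraries. The treated values lay on either side of the controls. Its log2 fold change was -0.02 ± 0.11, with an interval from -0.32 to 0.29 and an adjusted p-value of 0.937 (edgeR). For Rad21 (chr15:51962604-51993538, minus strand) the controls were at 665 and 651 CPM and the treated libraries at 792 and 646 CPM, so that replicate 1 alone was above the controls. The log2 fold change of Rad21 was 0.13 ± 0.17 (interval -0.33 to 0.58, adjusted p-value 0.638, edgeR), and Rad21 shares exon bases with Gm52217 on the opposite strand.

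Of the ring genes, Smc3 was the one whose groups did not overlap, a pattern common over all genes tested (32.2% higher and 34% lower). Per exon length, Rad21 exceeded Smc3 8.73-fold and 8.94-fold in the controls and 8-fold and 6.74-fold in the treated libraries, with an exact permutation p of 0.333 (two-sided). That p is again the smallest possible for this design.

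Stag1 (chr9:100597709-100958544, plus strand), the less abundant of the STAG subunits, showed the largest difference among the 10 genes. It was at 36.6 and 35.6 CPM in the controls and at 23.9 and 21.2 CPM in the treated libraries. Both treated libraries were below both controls, as for 34% of all genes tested, and neither treated library came near the control range. The treated level was 0.625 of control (interval 0.49 to 0.798), a log2 fold change of -0.68 ± 0.13, with an adjusted p-value of 0.0641 (edgeR). With DESeq2 the log2 fold change was the same at -0.68 and the adjusted p-value was 0.0289, and the edgeR fit with the replicate block gave the same adjusted p-value of 0.0289. DESeq2 called 14.2% of all genes it tested, and the block fit called 2969 of 13619.

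Stag2 (chrX:42149297-42277186, plus strand), which encodes the alternative STAG subunit, was at 100 and 97 CPM in the controls but at 103 and 61.7 CPM in the treated libraries. Replicate 1 was slightly above the controls and replicate 2 well below them. The log2 fold change of Stag2 was -0.26 ± 0.27 with an adjusted p-value of 0.54 (edgeR). Because Stag1 was low in both treated libraries and Stag2 in only 1, the ratio of Stag2 to Stag1 per exon length was 7.42 and 7.39 in the controls and 11.6 and 7.88 in the treated libraries. The ratio was higher in both treated libraries, although by little in replicate 2, and the exact permutation test again gave its smallest possible p of 0.333. With the longest transcripts in place of all exons the ratio was 4.88 and 4.86 in the controls and 7.67 and 5.19 in the treated libraries.

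**Figure D2:**
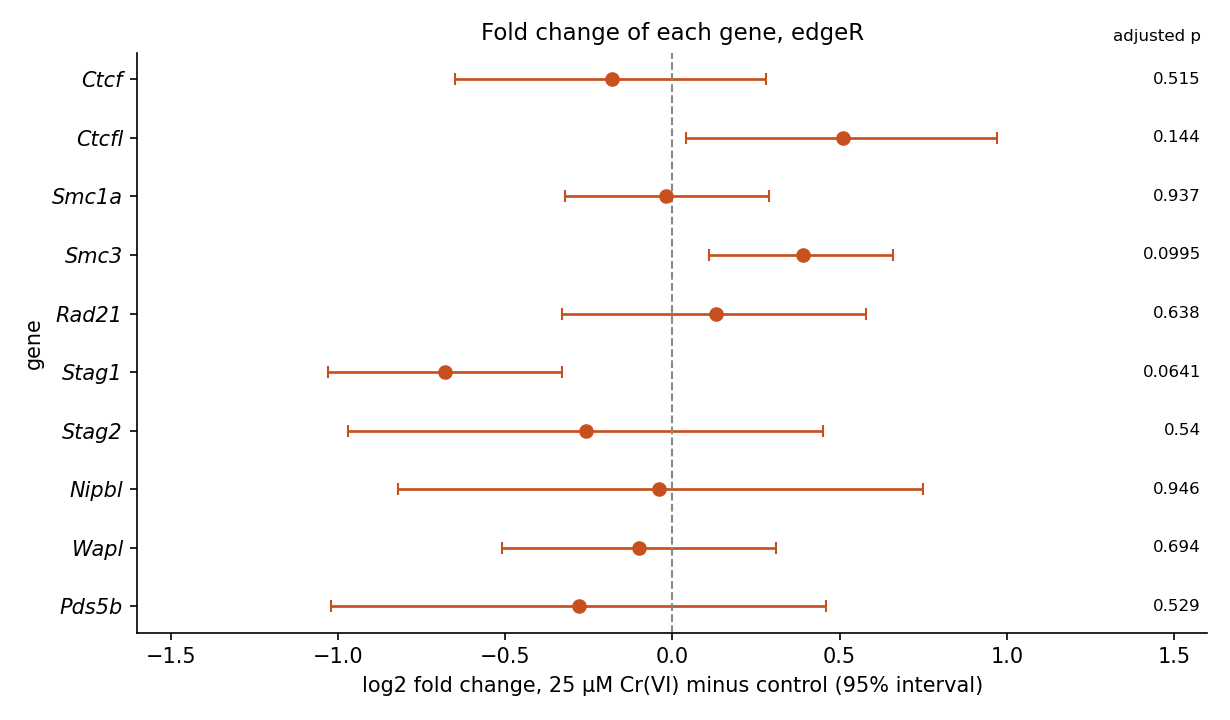
Log2 fold change of each gene, 25 µM Cr(VI) minus control, with its 95% interval (edgeR, 2 libraries a group) and the adjusted p-value at the right. The intervals of Ctcfl, Smc3 and Stag1 do not reach 0, and none of the 10 adjusted p-values is under 0.05.

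Nipbl (chr15:8289824-8465315, minus strand), the loader, was at 202 and 186 CPM in the controls and at 241 and 137 CPM in the treated libraries. Its treated libraries thus fell on opposite sides of the controls, 0.82 apart on the log2 scale, the widest gap of the 10 genes. Nipbl had a log2 fold change of -0.04 ± 0.29 with an interval from -0.82 to 0.75 and an adjusted p-value of 0.946 (edgeR). A mean near 0 with so wide an interval does not show that Nipbl kept its level. Nipbl shares exon bases with LOC102634078 on the opposite strand.

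The release factor gene Wapl (chr14:34672379-34747983, plus strand) was at 76.4 and 71.2 CPM in the controls and at 76.8 and 61.1 CPM in the treated libraries, with overlapping groups. Its log2 fold change was -0.10 ± 0.15 and its adjusted p-value 0.694 (edgeR). Pds5b (chr5:150673713-150810669, plus strand) was at 124 and 115 CPM in the controls and at 124 and 72.6 CPM in the treated libraries. As for Stag2, treated replicate 1 was at the control level and replicate 2 was low. Pds5b had a log2 fold change of -0.28 ± 0.28 with an adjusted p-value of 0.529 (edgeR). Wapl shares exon bases with 5830448L01Rik on the opposite strand and Pds5b with Gm40353 on its own strand, so part of their reads could belong to those genes.

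The members were also split by the genomic span of the gene, a split that was made after their values were seen. The 4 members that span at least 100 kb of genome are Stag1 (360836 bp), Nipbl (175492 bp), Pds5b (136957 bp) and Stag2 (127890 bp). Their median difference from the control mean was 0.06 on the log2 scale in treated replicate 1 and -0.70 in replicate 2. For the other 6 members the medians were 0.16 and 0.01. The gap between the treated replicates was 0.74 to 0.82 on the log2 scale in Stag2, Pds5b and Nipbl but 0.17 in Stag1, the longest, less than the 0.43 of the shorter Ctcf.

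Over all 1504 tested genes of that span the medians were -0.23 in replicate 1 and -0.49 in replicate 2, against 0.02 and 0.01 over the 12064 shorter genes. Of these 1504 long genes, 118 were called, 14 higher and 104 lower. Among the 12064 shorter genes 510 were called, 229 higher and 281 lower, and over all genes tested the share called was 4.63%. Only Stag1 of the 4 long members was low in both treated libraries, by -0.59 and -0.77 on the log2 scale. The part of gene length, or of the differences between the treated libraries, in the values of these members was not tested.

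**Figure D3:**
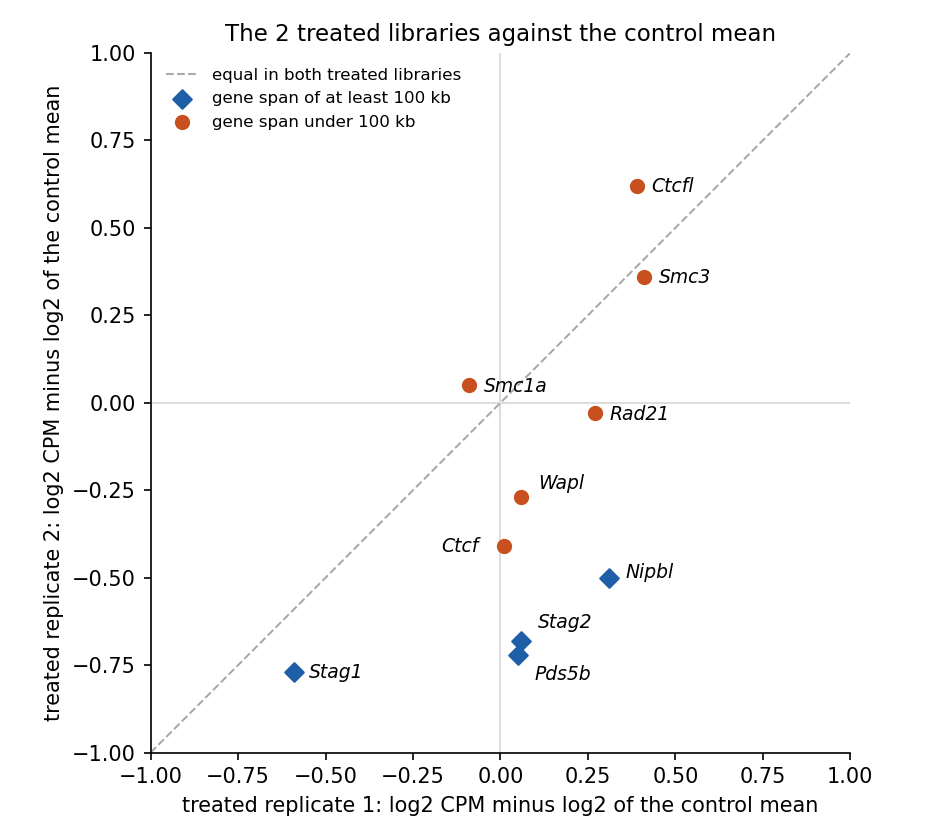
Difference of each gene from the control mean (log2 CPM) in treated replicate 1 (horizontal) and treated replicate 2 (vertical), with the line of equal values dashed and the genes that span at least 100 kb as blue diamonds. Stag2, Pds5b and Nipbl lie well below the line, whereas Stag1 is low and Smc3 and Ctcfl are high in both libraries.

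The genes whose profile over the 4 libraries came nearest to that of Ctcf, after each was centred on its own mean, were Sos2, Cnot1 and Agfg1. Their distances from Ctcf were 0.00744, 0.00933 and 0.0176 on the log2 CPM scale. In all, 205 genes lay within 0.1 of Ctcf, so these 3 do not stand apart from many others.

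The members were set beside 41 related genes in 4 lists, and 36 of these passed the filter on low counts. The edgeR test called 0 of the 36, beside 4.63% of all genes tested. At an unadjusted p-value under 0.05, 9 of the 36 passed, 3 higher and 6 lower, beside 30.7% of all genes tested. DESeq2 called 4, 1 higher (Cdca5) and 3 lower (Pds5a, Ncapd3 and Ncapg), beside 14.2% of all genes it tested. Neither count of related genes exceeds the share over all genes. The median log2 fold change of the 36 was -0.07, the same as that of the members.

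The first list held 15 other cohesin genes, which act in loading, acetylation, protection or cleavage of the ring, and its median log2 fold change was -0.09. In this list 3 of 15 passed the unadjusted threshold, 1 higher and 2 lower, beside 30.7% of all genes tested. Cdca5 encodes sororin, which keeps WAPL from opening cohesin on sister chromatids, and was at 38.7 and 38.5 CPM in the controls and at 60.9 and 69.5 CPM in the treated libraries. Both treated values were above both controls, as for 32.2% of all genes tested. The log2 fold change of Cdca5 was 0.76 ± 0.12, and the adjusted p-value was 0.051 (edgeR), just above the threshold, and 0.00858 with DESeq2. Pds5a, the paralog of Pds5b, was at 84.3 and 76.1 CPM in the controls and at 58.6 and 38.9 CPM in the treated libraries. Both treated values of Pds5a were below both controls, as for 34% of all genes tested, and apart from each other. The log2 fold change of Pds5a was -0.72 ± 0.23, with an adjusted p-value of 0.13 (edgeR), or 0.0443 with DESeq2.

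The second list held the 4 germline cohesin genes, Stag3, Rec8, Smc1b and Rad21l, whose products replace somatic subunits in meiosis. The filter on low counts removed all 4. Stag3 had 5 and 4 counts in the controls and 7 and 15 in the treated libraries, and the other 3 genes had at most 5 counts in any library.

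The third list held 14 genes of condensin, which compacts mitotic chromosomes, and of the related SMC5/6 complex and Smchd1. Its median log2 fold change was -0.11, with 5 of 14 past the unadjusted threshold, 1 higher and 4 lower, beside 30.7% of all genes tested. Ncapg, a subunit of condensin I, was at 55.7 and 54.8 CPM in the controls and at 39.2 and 24.9 CPM in the treated libraries. Its log2 fold change was -0.79 ± 0.25 with an adjusted p-value of 0.127 (edgeR), or 0.0333 with DESeq2. Ncapg shares exon bases with Lcorl on the opposite strand. Ncapd3, a subunit of condensin II, was at 77.8 and 73.1 CPM in the controls and at 52.3 and 40.6 CPM in the treated libraries, a log2 fold change of -0.70 ± 0.16 with adjusted p-values of 0.0837 (edgeR) and 0.0244 (DESeq2). For both genes each treated library was below each control, as for 34% of all genes tested, with treated replicate 2 the lower.

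The fourth list held 8 factors found at CTCF sites or as partners of CTCF, of which 7 were tested, with a median log2 fold change of -0.02. Of these 7, 1 passed the unadjusted threshold, beside 30.7% of all genes tested. This was Yy1, a zinc finger factor that also takes part in chromatin loops, at 73.7 and 76.2 CPM in the controls and 90.2 and 103 CPM in the treated libraries. Both treated libraries of Yy1 stood above both controls, as for 32.2% of all genes tested. The log2 fold change of Yy1 was 0.37 ± 0.12 with an adjusted p-value of 0.134 (edgeR). Top2b, a topoisomerase found at loop anchors, was at 56.6 and 54.6 CPM in the controls and at 88.3 and 53.8 CPM in the treated libraries, so only replicate 1 was high (log2 fold change 0.36 ± 0.26, adjusted p-value 0.405, edgeR).

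**Figure D4:**
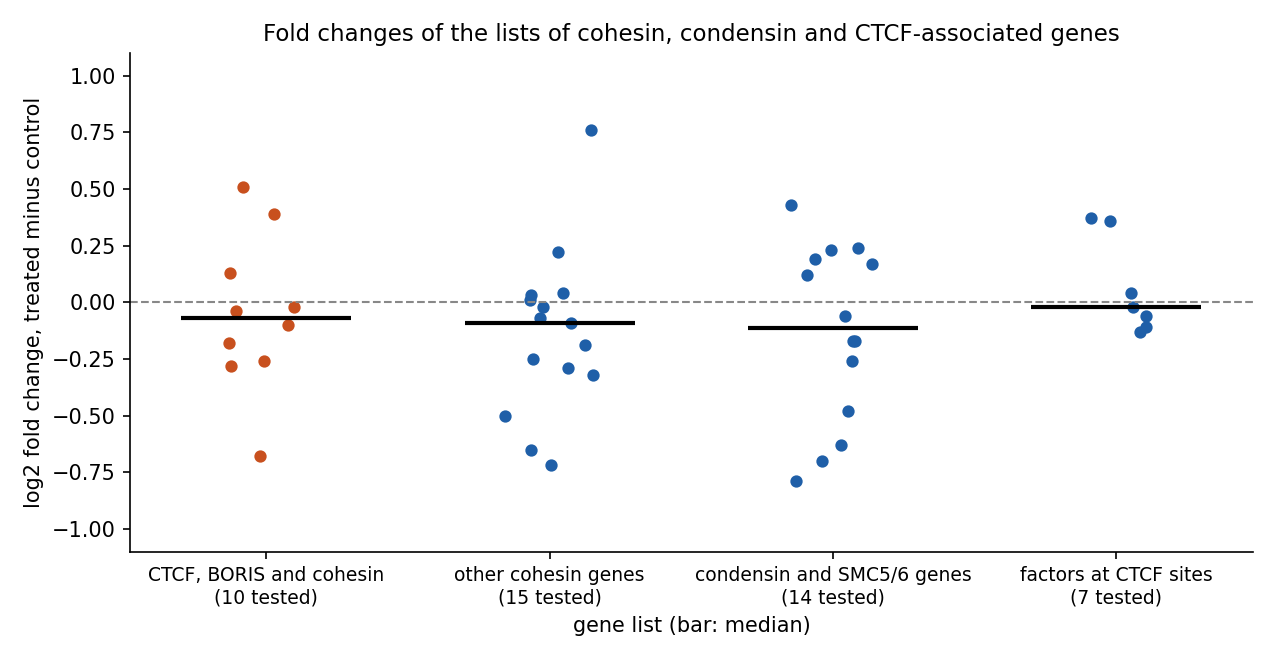
Log2 fold change, 25 µM Cr(VI) minus control, of the 10 members (orange) and of the tested genes in 3 lists of related genes (blue), with the median of each list as a bar. The 4 medians lie between -0.11 and -0.02, and the highest and lowest points are Cdca5 at 0.76 and Ncapg at -0.79.

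The second question was whether chromium opened chromatin at these genes. The list of the acute exposure holds 2945 peaks and that of the 20 passages 860 peaks. Within 10 kb of the 10 genes there were 2 peaks in the acute list, 1 at Pds5b and 1 at Nipbl, and 0 in the list of the 20 passages. Over all 21774 protein-coding genes of the RefSeq annotation, 9.41% had a peak of the acute list within 10 kb and 3.09% a peak of the 20-passage list, so 2 of 10 and 0 of 10 are counts too small to set apart from these shares.

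The Pds5b peak, of 266 bp, lay at chr5:150673368-150673633 (mm10), 80 bp before the annotated start of the gene, and its centre was 212 bp from the nearest transcription start site. It also fell in an intron of Gm40353. A peak centre within 1000 bp of a start site was found for 1.09% of protein-coding genes. The MACS score of the peak, 10 times the negative log10 of its p-value, was 50.28, while the lowest score in that list is 50, so it lay close to the limit of the list. Its sequence is given because it covers the promoter side of a member gene. It is written on the plus strand, 56.4% of its bases are G or C, it holds 13 CpG, and 38.7% of it is masked as repeats.
Pds5b peak: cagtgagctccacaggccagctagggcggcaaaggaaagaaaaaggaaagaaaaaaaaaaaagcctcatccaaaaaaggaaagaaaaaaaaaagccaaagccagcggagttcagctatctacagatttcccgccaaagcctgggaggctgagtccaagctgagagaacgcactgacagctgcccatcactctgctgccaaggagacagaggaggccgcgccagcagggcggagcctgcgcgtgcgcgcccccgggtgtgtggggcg

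The Nipbl peak, of 65 bp, lay at chr15:8472802-8472866, 7487 bp upstream of the gene and in an intron of Gm31282. Its score was 55.12, and 92.3% of it is masked as repeats, where reads can match more than 1 place. It is written on the plus strand.
Nipbl peak: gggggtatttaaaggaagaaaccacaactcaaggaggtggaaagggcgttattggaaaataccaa

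In RNA-seq neither Pds5b nor Nipbl was called, and both were among the members with the widest gaps between treated libraries. For the other members the nearest peak of the acute list was farther away, from 45646 bp at Smc3, 65040 bp at Smc1a, 73951 bp at Rad21 and 109641 bp at Wapl to 230965 bp at Ctcfl, 308030 bp at Ctcf, 355659 bp at Stag1 and 5829282 bp at Stag2. In the 20-passage list the nearest peak to any of the 10 genes was 44611 bp from Ctcfl. Each list compares 1 library with 1 control without replicates, and since the lists hold scores in place of reads, the depth at a peak is unknown.

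The sequence that CTCF and BORIS bind was then searched in the peaks, as the sites of their protein products. The paper had already reported CTCF and BORIS motifs enriched in the peaks opened by the acute exposure. An excess of the sequence in that list was therefore known beforehand, and finding it again in the same peaks adds no independent evidence. The core CCACNAGNNGGC, with N for any base, was searched on both strands. It occurred in 60 of 2945 peaks of the acute list (2.04%, 95% Wilson interval 1.59% to 2.61%) and in 10 of 5890 windows of the same lengths placed 5000 bp to either side (0.17%). In the 20-passage list it occurred in 12 of 860 peaks (1.4%, 0.8% to 2.42%) and in 5 of 1720 flanking windows (0.291%). The intervals cover counting error only. Of 32817 promoter windows, each 250 bases before to 50 after 1 annotated RefSeq start of a gene, 0.649% held it. Unlike the flanking windows, these were not matched to the peaks in length, so their share is not compared with those of the peaks. A match describes the letters of a region, and CTCF or BORIS binding was not measured.

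With the looser core CCNNNAGNNGGC, which includes every match of the first, the shares were 7.06% of acute peaks against 1.53% of flanking windows, 11.4% of 20-passage peaks against 6.74% of flanking windows, and 8.61% of promoter windows. Peaks of the 20-passage list are longer, with a median width of 513.5 bp against 120 bp. The lists are therefore not compared with each other, nor with the promoter windows, whose length matches neither. Of the 60 acute peaks with the core, 22 lay between genes, 31 in introns and 7 at exons, and 5 had their centre within 1000 bp of a transcription start site. The core lay within 20 bp of the peak centre in 33 of 60 and at a median distance of 19.25 bp. These peaks have a median width of 128.5 bp, so no core can lie far from the centre. Whether cores sit closer to the centre than peak width alone would give was not tested. There were 16 different cores among the 60, and the most frequent were CCACTAGAGGGC in 11, CCACAAGAGGGC in 8 and CCACCAGAGGGC in 7.

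The peaks with the core and the highest scores are shown to let the core be seen in its surroundings. Those of the acute list were at chr10:31299345-31299402 between genes (score 124.65), at chr10:20966273-20966330 in an intron of Ahi1 (score 102.81) and at chr15:100307791-100307962 in an intron of Mettl7a1 (score 86.07, 73.3% masked as repeats). Each is written whole, 5′ to 3′ on the strand of its core, which is the minus strand for the first 2 and the plus strand for the third, with the core in capitals.
Acute, chromosome 10 between genes: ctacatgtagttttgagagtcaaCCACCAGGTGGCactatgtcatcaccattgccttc
Acute, Ahi1 intron: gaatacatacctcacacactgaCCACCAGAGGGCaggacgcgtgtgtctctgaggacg
Acute, Mettl7a1 intron: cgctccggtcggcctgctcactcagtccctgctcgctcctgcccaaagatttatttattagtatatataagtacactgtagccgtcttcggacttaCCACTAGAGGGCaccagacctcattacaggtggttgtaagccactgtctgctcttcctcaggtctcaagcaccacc

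Those of the 20-passage list were the 451-bp peak at chr13:41571985-41572435 in an intron of Gm32184 (score 82.07), the 331-bp peak at chr4:33119091-33119421 between genes (score 74.65) and the 585-bp peak at chr7:80232468-80233052, which reaches exons of Cib1 and Gdpgp1 (score 73.7). Only the stretch around the core is written for these longer peaks, all on the minus strand, from chr13:41572197-41572328, chr4:33119256-33119387 and chr7:80232819-80232848.
20 passages, Gm32184 intron: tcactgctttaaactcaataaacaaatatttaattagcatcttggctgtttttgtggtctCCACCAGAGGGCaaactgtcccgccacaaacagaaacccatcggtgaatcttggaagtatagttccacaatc
20 passages, chromosome 4 between genes: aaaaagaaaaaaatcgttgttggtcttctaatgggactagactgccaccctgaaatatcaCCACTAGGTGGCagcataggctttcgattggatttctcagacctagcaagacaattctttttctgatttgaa
20 passages, Cib1: ccgccccgcCCACTAGAAGGCggggccacg
None of the 6 peaks was within 10 kb of a member gene. The Ahi1 and Gm32184 peaks hold the same 12 bases as their core.

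**Figure D5:**
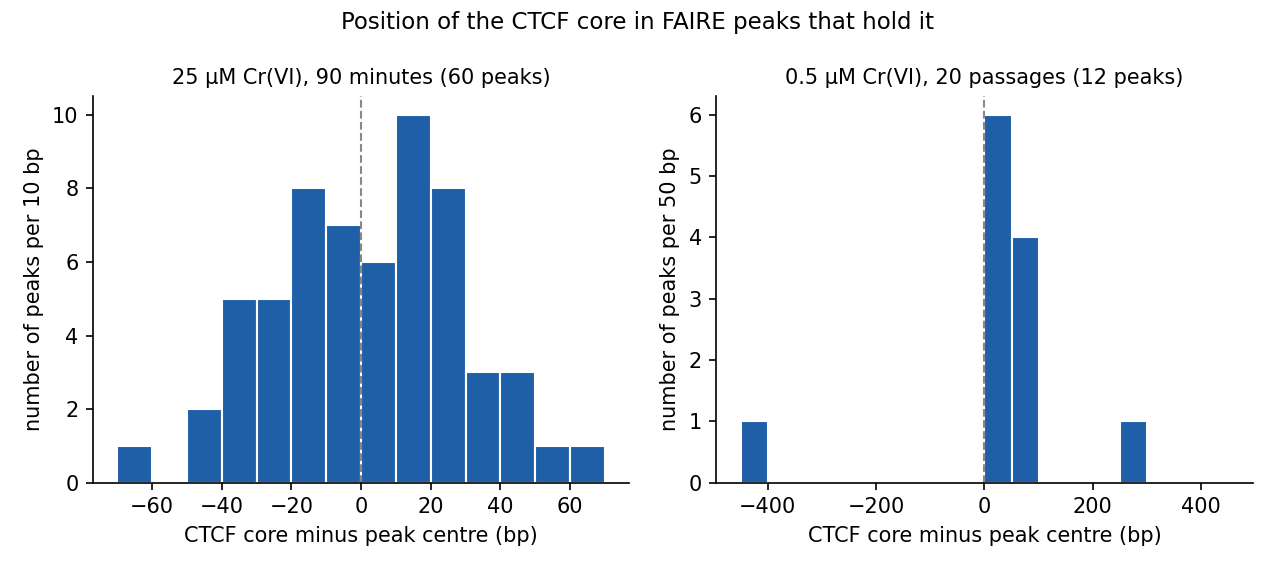
Distance in bp from the peak centre to the CTCF core in the 60 peaks of the 25 µM, 90-minute list and the 12 peaks of the 0.5 µM, 20-passage list that hold it, as numbers of peaks per bin of 10 bp and 50 bp. In the first list 33 of 60 cores lie within 20 bp of the centre, and the 12 cores of the second are spread out to 403 bp.

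The core did not occur in the Pds5b and Nipbl peaks, nor in the 6 member promoter windows that could be matched (Ctcf, Smc1a, Smc3, Stag1, Wapl and Pds5b). The windows of Ctcf, Stag1, Wapl and Pds5b sit at annotated starts downstream of the outermost start of the gene, so the other starts of these genes were not searched in this way. The Pds5b window held 1 match of the looser core. These 6 windows were rich in G and C, from 58.3% at Smc1a to 75.7% at Pds5b, beside a median of 52.7% over all promoter windows. The absence of these letters from a window says nothing of the binding of CTCF elsewhere at these genes.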

How the data were processed

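RNA-seq reads had been aligned by the authors to mm10 with TopHat and deposited as raw read counts per Entrez gene, without normalisation. The counting tool, its annotation and its strand setting are not given in the sources used here. The deposited FAIRE peak score is that of MACS, run by the authors at default settings on BWA alignments with 1 treated and 1 control library. The submitters' processing notes also name bcl2fastq, CASAVA 1.8 and DESeq. Genes were placed on RefSeq GRCm38.p6 (mm10), which held 23281 of the 23403 gene IDs.

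Counts of the 4 RNA-seq libraries were filtered with filterByExpr, normalised by TMM and compared with edgeR 4.0.16 (quasi-likelihood test, two-sided, no block), with Benjamini-Hochberg adjustment over 13619 genes and a threshold of 0.05. The biological coefficient of variation was 0.193. In this fit 631 genes were called, 243 higher and 388 lower. DESeq2 1.42.0, DESeq2 size factors, library size alone, no filter, a replicate block and leaving out each library were alternatives. Peaks were described without a test (Python 3.11.15, pysam 0.24.0). The edgeR step was tried on simulated counts in which treated and control libraries had the same spread for each gene. That setting leaves out the wider gap between the treated libraries seen here.

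The members and lists were chosen with earlier results of these data known. The text names all members, every related gene called (there was none), the 2 tested genes of each list with the largest absolute log2 fold change, the 3 genes nearest Ctcf, every peak within 10 kb of a member and the 3 highest-scoring peaks with the core in each list. Other related genes, markers and the split at 100 kb were named or made after the values were seen.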

Additional observations from a re-analysis of the deposited data

How the results depend on the processing

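With 2 libraries a group, no exact permutation test can go below 0.333. Of the 10 members, DESeq2 called 1 and the replicate block 1 (Stag1 in both), and of the related genes DESeq2 called 4 and the replicate block 5. The block called 2969 of the 13619 genes tested, but the labels share only a number between groups. Deviations of same-numbered libraries correlated at 0.178 over 10561 genes, with only 2 pairs. Leaving out 1 library gave 0 to 8 members and 0 to 30 related genes called. It was 0 and 0 without either control, 8 and 30 without treated replicate 1, and 6 and 25 without treated replicate 2. In these last fits the lone treated library is assumed to vary like the controls, which are much closer to each other. Most of all genes tested were called in them too, so these calls say nothing particular of the members or the related genes. Leaving out 1 library turned the sign of the log2 fold change of Ctcf (range -0.40 to 0.01), Rad21 (-0.02 to 0.27), Smc1a (-0.09 to 0.06), Stag2 (-0.67 to 0.06), Nipbl (-0.49 to 0.31), Wapl (-0.26 to 0.06), Pds5b (-0.71 to 0.05) and Top2b (-0.04 to 0.67), but not of Ctcfl (0.39 to 0.63), Smc3 (0.34 to 0.41) or Stag1 (-0.76 to -0.59). DESeq2 size factors in edgeR turned Smc1a to 0.0017, and library size alone moved the median of all genes to -0.11. No other scaling or filter called a member. The acute list had 0 peaks at the members in gene bodies alone, 0 at a score of at least 60, 0 at a score of at least 100 and 1 with its centre within 1000 bp of a start site, and the 20-passage list had 1 within 50 kb. The share of peaks with the CTCF core was 7.06% and 11.4% with the looser core, and 5.88% and 0% at a score of at least 100 (2 of 34 and 0 of 36 peaks), in the acute and the 20-passage list. At that score 1.47% and 0% of flanking windows held the core. The looser core was then in 8.82% of acute peaks against 1.47% of flanking windows. In the 20-passage list it was in 8.33% of peaks against 12.5% of flanking windows, the reverse of the order over all peaks. The cause of these shifts was not tested.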
